A study of Arabidopsis thaliana with 4 samples.

Results

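The mitochondrial genome of Arabidopsis thaliana was represented by 144 genes, chosen as the rows of the deposited table whose locus identifier begins with ATMG, out of 33624 rows in all. They comprised 14 nad rows, 4 cob and cox genes, 6 atp genes, 7 ribosomal protein genes, 5 ccm genes, 2 other named genes (MATR and ORFX), 3 rRNA genes, 20 tRNA genes and 83 reading frames without a named product. RNA was taken from whole 5-day-old seedlings of 2 T-DNA insertion lines on MS medium, and each condition gave 1 library. The 4 libraries were wbc19 mutant (SALK_107731) with 50 mg/l kanamycin, the same mutant without kanamycin, control (SALK_064816C) with 50 mg/l kanamycin, and control without kanamycin. Both lines are homozygous and both carry a T-DNA with a kanamycin resistance gene. The control insertion lies near TRANSPARENT TESTA 4 and is described as not disrupting a gene. Each line is a single insertion line, so a difference between the lines cannot be told apart from a difference between these 2 insertions, and with 1 library a condition nothing checks a difference against replicates.

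Mitochondria oxidise the products of sugar breakdown through a chain of protein complexes in their inner membrane and use the resulting proton gradient to make ATP. The plant mitochondrial genome encodes only some subunits of these complexes, together with its own ribosomal RNAs, some ribosomal proteins, some tRNAs and proteins that attach haem to cytochrome c. All other subunits are made from nuclear genes and imported. Kanamycin is an aminoglycoside that binds ribosomes of the bacterial type, and the ribosomes of mitochondria and plastids are of that type. Mature mitochondrial transcripts of plants are seldom polyadenylated, and a poly(A) tail marks many of them for decay. The libraries were made from RNA bound to oligo(dT), so the values below measure the mitochondrial RNA that this selection retained, not the whole pool. In whole seedlings, fewer cells or mitochondria of a kind and less RNA in each cannot be told apart.

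Values are FPKM, which scale fragments by gene length and library size, so levels can be compared between long genes of different length. For genes near or under the assumed fragment length of 200 bases, such as the tRNAs, a few reads give high values and levels cannot be ranked against those of long genes. WBC19 (AT3G55130), the gene for which the mutant is named, had a level of 2.30 FPKM in the library whose label is wbc19 mutant + kanamycin and 3.00 FPKM in that of wbc19 mutant, and a listing at 0 in both libraries whose labels name the control line. This order is the reverse of what the knockout label implies, and libraries are called here by their labels. The values are low, with a mean of 1.32 FPKM over the 4 libraries. Values of 0 also fell on well-covered genes, as given below, and whether the labels hold was not tested. The 6 shoot markers, genes of the small Rubisco subunit and of light-harvesting proteins, were above 0 in all 4 libraries. Of 5 root markers, 2 were above 0 in wbc19 mutant + kanamycin, 1 in wbc19 mutant, 3 in control + kanamycin and 3 in control. The count and the level did not have the same order. PYK10 (AT3G09260), the root marker with the highest level, was at 496 FPKM in wbc19 mutant + kanamycin, 1299 in wbc19 mutant, 605 in control + kanamycin and 910 in control. The other root markers above 0, IRT1 and COBL9, were at no more than 11.6 FPKM in any library. The libraries differed in how many rows were above 0 at all, and wbc19 mutant had the fewest. The step between the smallest values put 1 read over 1000 bases at 1.17 FPKM in wbc19 mutant + kanamycin, 0.680 in wbc19 mutant, 0.615 in control + kanamycin and 1.13 in control. The library with the fewest detected rows was therefore not the one with the fewest reads.

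Few mitochondrial genes were detected, and fewest in wbc19 mutant. Of the 144, 51 were above 0 FPKM in wbc19 mutant + kanamycin (35.4%, against 39.4% of all rows), 26 in wbc19 mutant (18.1%, against 26.9%), 35 in control + kanamycin (24.3%, against 33.1%) and 63 in control (43.8%, against 44.9%). In each library the mitochondrial share was below that of all rows. Only 16 genes were above 0 in all 4 libraries, and 68 were at 0 in all 4. Of the 38 protein genes with a known product, 27 were above 0 in wbc19 mutant + kanamycin, 17 in wbc19 mutant, 22 in control + kanamycin and 32 in control. Their summed level was 479.8 FPKM in wbc19 mutant + kanamycin, 129 in wbc19 mutant, 413 in control + kanamycin and 542 in control.

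**Figure D1:**
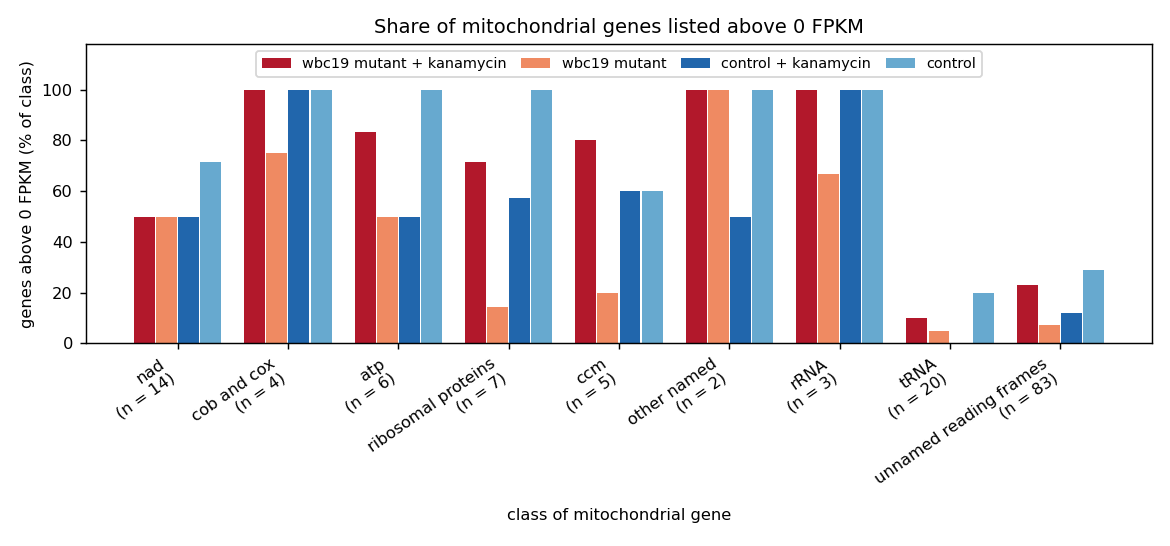
Percent of the genes of each class listed above 0 FPKM (vertical axis), with 1 bar per library and the number of genes of each class in brackets. The ribosomal protein bars show 5 of 7 genes in wbc19 mutant + kanamycin, 1 in wbc19 mutant, 4 in control + kanamycin and 7 in control, while tRNA genes and unnamed reading frames stay low in all libraries.

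Ribosomal RNA made up most of the mitochondrial signal. RRN18, the small subunit rRNA (mitochondrial genome 361350 to 363284 in TAIR10), was at 2276 FPKM in wbc19 mutant + kanamycin, 2462 in wbc19 mutant, 2994 in control + kanamycin and 3354 in control. RRN26, the large subunit rRNA (8848 to 11415), was at 1126 FPKM in wbc19 mutant + kanamycin, 1116 in wbc19 mutant, 1766 in control + kanamycin and 1578 in control. For both rRNAs the 2 wbc19 mutant libraries were below the 2 control libraries. The exact 95% Poisson intervals of RRN18 were 2200 to 2354 FPKM in wbc19 mutant + kanamycin and 2402 to 2524 in wbc19 mutant, against 2930 to 3058 in control + kanamycin and 3263 to 3446 in control. These intervals cover counting error only, and PCR copies without molecular identifiers are not independent molecules. On the scale used for all differences, log2 of FPKM plus a pseudocount of 1, RRN18 differed by −0.45 in wbc19 mutant against control and by −0.40 when wbc19 mutant + kanamycin was set against control + kanamycin. RRN26 differed by −0.50 between the untreated libraries and by −0.65 between those with kanamycin. Between libraries of 1 line the long rRNAs lay closer together. RRN18 differed by −0.16 in control + kanamycin against control and by −0.11 when wbc19 mutant + kanamycin was set against wbc19 mutant, and RRN26 by 0.16 and 0.01 in this pair of comparisons.

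RRN5, the short 5S rRNA, did not follow the long rRNAs. It was at 33.8 FPKM in wbc19 mutant + kanamycin, was listed at 0 in wbc19 mutant, and was at 901 FPKM in control + kanamycin and 85.3 in control. The value in control + kanamycin stood for about 55 reads, with an interval of 673 to 1163 FPKM, and was outside the interval of control (18.4 to 260.6 FPKM, about 3 reads). ORF107A (11918 to 12241), a reading frame without a named product, had the second highest mean FPKM, after RRN18, at 1565 FPKM in wbc19 mutant + kanamycin, 1555 in wbc19 mutant, 1572 in control + kanamycin and 2009.8 in control. It is a short row, and these values stood for about 180 to 342 reads, against about 2287 to 6800 for RRN26, so its rank above RRN26 depends on the length correction. In RefSeq's version of the mitochondrial genome, 185 of the 324 bases of ORF107A lie inside the rrn26 feature, which is 3169 bases long there, against 2568 bases for RRN26 in the table. The RRN26 and ORF107A rows are 502 bases apart in the table. RRN18, RRN26 and ORF107A together held 79.9% of the summed mitochondrial FPKM in wbc19 mutant + kanamycin, 89.8% in wbc19 mutant, 79.9% in control + kanamycin and 82.9% in control.

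Much of the mitochondrial genome has a near-identical copy in the nucleus. With RefSeq's mitochondrial and nuclear sequences, 71.2% of all mitochondrial stretches of 36 bases, the length of a clipped read, also occurred in a nuclear chromosome. Most lay in a single insert on chromosome 2 (3239038 to 3509765 in TAIR10), of whose 36-base stretches 97% were mitochondrial. Of the 113 mitochondrial genes that could be matched to a RefSeq feature and held such a stretch, 75 had at least 90% of their stretches in the nucleus, 54 had all of them there, and 13 had none. For the genes with a copy, the alignment of a short read to either place cannot be told apart. The table holds 128 rows inside the insert, of which 44 were above 0 in wbc19 mutant + kanamycin, 21 in wbc19 mutant, 31 in control + kanamycin and 56 in control.

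ATP9 encodes the subunit of the membrane ring of ATP synthase, and its coding sequence shows how complete this copy is. RefSeq's mitochondrial atp9 of 225 bases occurs without a mismatch in the chromosome 2 insert, on the minus strand, at chr2:3251856-3252080. It is printed here from that nuclear position, 5′ to 3′ in the sense of the gene, because no base in it sets the nuclear copy apart:
ATP9 in the chromosome 2 insert: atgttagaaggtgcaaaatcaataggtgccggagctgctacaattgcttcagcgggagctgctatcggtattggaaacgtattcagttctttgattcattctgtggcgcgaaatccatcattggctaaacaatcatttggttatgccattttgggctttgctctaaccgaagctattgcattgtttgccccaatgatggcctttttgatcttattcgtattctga

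In 66 cases 1 row of the insert held at least 90% of the 36-base stretches of a mitochondrial gene. Both rows of such a pair were above 0 in 23 of the 30 pairs with any signal in wbc19 mutant + kanamycin, 12 of 18 in wbc19 mutant, 19 of 31 in control + kanamycin and 32 of 41 in control. In the remaining pairs only the chromosome 2 row was above 0. Some chromosome 2 rows stood in more than 1 pair, such as AT2G07682 with ORF158, ORF184 and ORF187, and AT2G07701 with ORF106A and ORF106G. The pairs are therefore not independent. Some rows were far longer than the gene, such as AT2G07682 (3292516 to 3297403) beside the 477 bases of ORF158. Such a row can hold signal from sequence outside the copy. No pair had a mitochondrial row above 0 beside a chromosome 2 row at 0 in any library, although the copy of CCB452, AT2G07723, came down to 0.0118 FPKM in control + kanamycin beside 7.16 FPKM for CCB452. The values of both rows lay within 2% of each other in 10 pairs in wbc19 mutant + kanamycin, 3 in wbc19 mutant, 5 in control + kanamycin and 10 in control, and were identical in 2 pairs in wbc19 mutant + kanamycin, 0 in wbc19 mutant, 2 in control + kanamycin and 6 in control. RPSL2 and its nuclear row AT2G07675, for example, were both at 45.0 FPKM in wbc19 mutant + kanamycin and both at 6.98 FPKM in control. Values of the copied genes are therefore not specific to mitochondrial RNA. A set of 22 genes had at least 90% of their stretches nowhere else in the genome, among them RRN18, RRN26, RRN5, NAD9, NAD5C, COX1, COX2, ORF25 and RPS3.

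**Figure D2:**
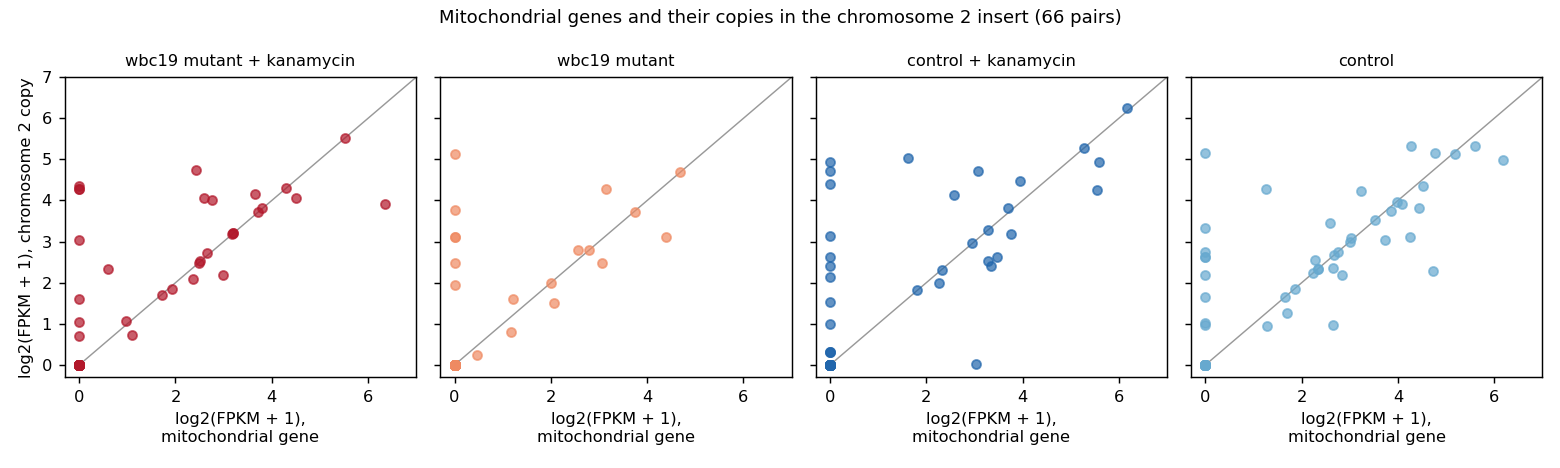
Level of the chromosome 2 row (vertical axis) against that of the mitochondrial gene (horizontal axis), both as log2 of FPKM plus 1, for 66 pairs with 1 panel per library and the line of equal values in grey. Many points lie on or near the line and others at 0 on the horizontal axis, and the lowest point with a mitochondrial value above 0 is the copy of CCB452 in control + kanamycin, at 0.0118 FPKM.

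The nad genes encode subunits of complex I, which passes electrons from NADH to ubiquinone. Of 14 rows, 7 were above 0 in each of wbc19 mutant + kanamycin, wbc19 mutant and control + kanamycin, and 10 in control. Their levels did not keep 1 order across libraries. NAD9 (23663 to 24235), which has no nuclear copy of note, was at 5.21 FPKM in wbc19 mutant + kanamycin, was listed at 0 in wbc19 mutant, and was at 90.1 FPKM in control + kanamycin and 36.6 in control. The value in control + kanamycin stood for about 55 reads and had an interval of 68.4 to 118.2 FPKM, while 3 reads would give 5.48 FPKM in wbc19 mutant. Both wbc19 mutant libraries were below both control libraries for NAD9. NAD7, another subunit of the arm that takes up electrons, was at 7.04 FPKM in wbc19 mutant + kanamycin, 0.694 in wbc19 mutant, 19.4 in control + kanamycin and 20.1 in control. NAD6 was listed at 0 in both wbc19 mutant libraries and was at 14.5 FPKM in control + kanamycin and 20.7 in control.

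In plants nad1, nad2 and nad5 are each transcribed in separate pieces that are joined by trans-splicing, and the table lists the pieces as rows of their own. NAD5C (20571 to 22086), which had all its 36-base stretches to itself, was at 106 FPKM in wbc19 mutant + kanamycin, 1.85 in wbc19 mutant, 0 in control + kanamycin and 18.9 in control. NAD5A, the piece that begins the same message, was at 1.126 FPKM in wbc19 mutant + kanamycin, 1.27 in wbc19 mutant, 8.67 in control + kanamycin and 22.0 in control. NAD5C was thus highest in wbc19 mutant + kanamycin, where NAD5A was low as in wbc19 mutant. The NAD5B row is 22 bases long, shorter than a clipped read of 36 bases, so its listing at 0 in all libraries is not informative. NAD1A was listed at 0 in wbc19 mutant + kanamycin, was at 19.8 FPKM in wbc19 mutant and 45.6 in control + kanamycin, and was listed at 0 in control, while NAD1C was at 0 throughout. NAD1A is wholly copied on chromosome 2. The copy, AT2G07785, was at 2.06 FPKM in wbc19 mutant + kanamycin, 7.71 in wbc19 mutant, 18.2 in control + kanamycin and 5.75 in control. NAD2B was at 0.953 FPKM in wbc19 mutant + kanamycin, 14.4 in wbc19 mutant, 0 in control + kanamycin and 10.5 in control, whereas NAD2A was above 0 only in control. Of the remaining subunits, NAD4 was highest in control (6.94 FPKM in wbc19 mutant + kanamycin, 3.17 in wbc19 mutant, 4.98 in control + kanamycin and 18.1 in control) and NAD3 highest in wbc19 mutant (12.9 FPKM in wbc19 mutant + kanamycin, 24.7 in wbc19 mutant, 0 in control + kanamycin and 5.35 in control). NAD1C, NAD2B and NAD3 share their locus in the table with other reading frames, NAD1C with MATR, so the split of reads among them is uncertain.

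The cob and cox genes, whose products sit in complexes III and IV, were above 0 in all but 1 case, COX2 in wbc19 mutant. COX1 (349830 to 351413), the catalytic subunit of cytochrome c oxidase, was at 23.3 FPKM in wbc19 mutant + kanamycin, 22.9 in wbc19 mutant, 13.1 in control + kanamycin and 14.8 in control. It was higher in both wbc19 mutant libraries, with log2 differences of 0.59 in wbc19 mutant against control and 0.78 when wbc19 mutant + kanamycin was set against control + kanamycin. The intervals overlapped in each comparison, at 17.0 to 30.7 FPKM in wbc19 mutant against 8.67 to 23.1 in control, and 15.7 to 34.1 in wbc19 mutant + kanamycin against 8.997 to 19.0 in control + kanamycin. COX1 has almost no copy outside the mitochondrial genome. COB was at 11.6 FPKM in wbc19 mutant + kanamycin, 7.87 in wbc19 mutant, 7.46 in control + kanamycin and 5.27 in control, with overlapping intervals throughout. COX2 was at 41.6 FPKM in wbc19 mutant + kanamycin, 0 in wbc19 mutant, 8.64 in control + kanamycin and 13.6 in control. COX3, which is wholly copied on chromosome 2, was at 4.37 FPKM in wbc19 mutant + kanamycin, 1.33 in wbc19 mutant, 12.5 in control + kanamycin and 7.13 in control. Its copy, AT2G07687, was highest in wbc19 mutant + kanamycin, where it and COX3 differed most, at 25.6 FPKM in wbc19 mutant + kanamycin, 2.05 in wbc19 mutant, 8.09 in control + kanamycin and 7.52 in control. COX2 and COX3, unlike COX1 and COB, were thus lowest in wbc19 mutant.

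The atp genes encode subunits of ATP synthase. ATP1 (302166 to 303689), the alpha subunit of the catalytic head, was at 21.6 FPKM in wbc19 mutant + kanamycin, 7.39 in wbc19 mutant, 47.3 in control + kanamycin and 47.5 in control. Both wbc19 mutant libraries were below both control libraries, and the interval of 3.93 to 12.1 FPKM in wbc19 mutant did not overlap that of 35.96 to 61.8 in control. The log2 difference was −2.53 in wbc19 mutant against control and −1.10 between the lines on kanamycin. Its copy on chromosome 2, AT2G07698, had the same order of lines, at 15.6 FPKM in wbc19 mutant + kanamycin, 4.56 in wbc19 mutant, 29.8 in control + kanamycin and 38.8 in control. ATP9 was at 80.5 FPKM in wbc19 mutant + kanamycin, 4.91 in wbc19 mutant, 71.0 in control + kanamycin and 71.8 in control. The ATP9 row was low in wbc19 mutant alone, with a log2 difference of −3.62 against control, and with kanamycin the wbc19 mutant was higher than without it by 3.78. Its row on chromosome 2, AT2G07671, was instead low in both wbc19 mutant libraries, at 14.2 FPKM in wbc19 mutant + kanamycin, 5.95 in wbc19 mutant, 75.0 in control + kanamycin and 30.8 in control. ORF25, the gene of the stator subunit atp4, was at 10.5 FPKM in wbc19 mutant + kanamycin, 0 in wbc19 mutant, 9.94 in control + kanamycin and 17.3 in control. All 6 atp genes were above 0 in control, 5 in wbc19 mutant + kanamycin and 3 in each of wbc19 mutant and control + kanamycin.

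**Figure D3:**
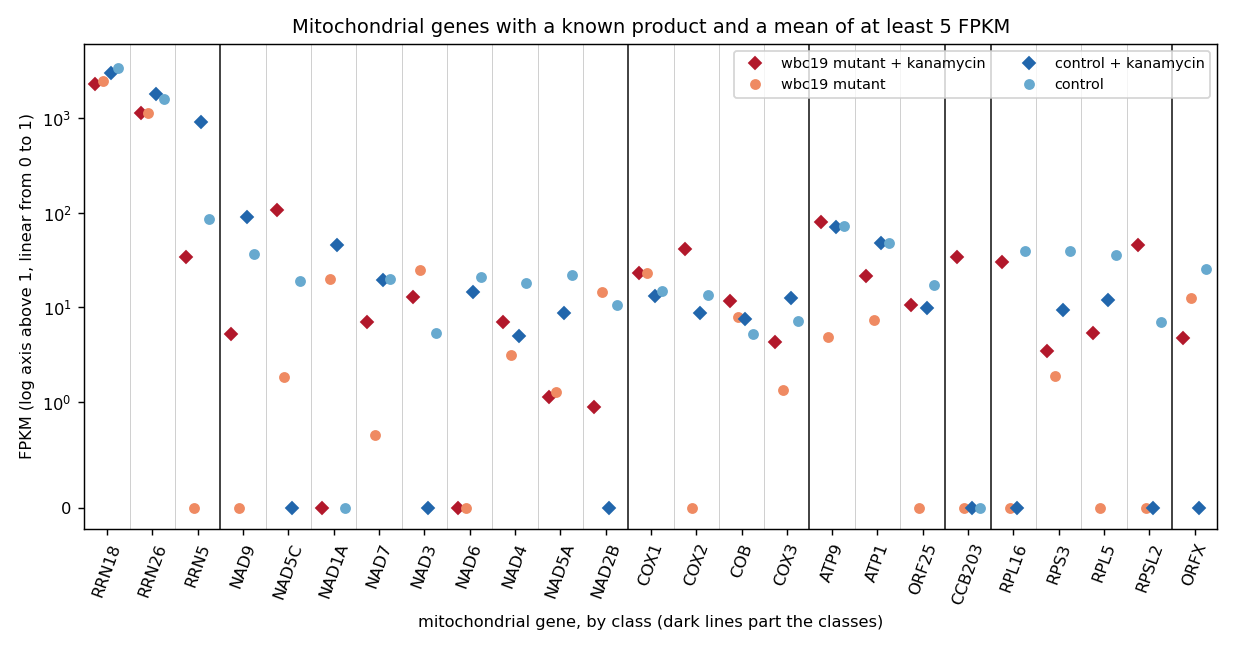
FPKM (vertical axis, logarithmic above 1 and linear from 0 to 1) of the 25 mitochondrial genes that have a known product and average 5 FPKM or more across libraries, with 1 point per library and dark lines between classes. The long rRNAs stand above 1000 FPKM in all libraries, while of the protein genes only NAD4, NAD5A, NAD7, COX1, COX3, COB, ATP1, ATP9 and RPS3 have no point at 0.

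Mitochondrial ribosomal protein genes were detected in full in control only. Of 7, 5 were above 0 in wbc19 mutant + kanamycin, 1 in wbc19 mutant, 4 in control + kanamycin and 7 in control, and their summed level was 88.0 FPKM in wbc19 mutant + kanamycin, 1.90 in wbc19 mutant, 33.8 in control + kanamycin and 130.2 in control. RPS3, of the small subunit, was at 3.45 FPKM in wbc19 mutant + kanamycin, 1.90 in wbc19 mutant, 9.45 in control + kanamycin and 39.6 in control. RPL16, of the large subunit, overlaps RPS3 in 1 locus of the table and was at 30.1 FPKM in wbc19 mutant + kanamycin, 0 in wbc19 mutant, 0 in control + kanamycin and 39.2 in control. The division of reads between both is therefore uncertain. RPL5 was at 5.31 FPKM in wbc19 mutant + kanamycin, 0 in wbc19 mutant, 12.1 in control + kanamycin and 35.4 in control. RPSL2 was at 45.0 FPKM in wbc19 mutant + kanamycin, about 7 reads, was listed at 0 in wbc19 mutant and control + kanamycin, and was at 6.98 FPKM in control, about 1 read. RPS3 was thus the only ribosomal protein gene above 0 in wbc19 mutant.

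The ccm genes, needed to attach haem to cytochrome c, were low. Of 5, 4 were above 0 in wbc19 mutant + kanamycin, 1 in wbc19 mutant, 3 in control + kanamycin and 3 in control. CCB203 alone averaged 5 FPKM or more. It was at 33.7 FPKM in wbc19 mutant + kanamycin, about 12 reads, and was listed at 0 in wbc19 mutant, control + kanamycin and control. Its counterpart on chromosome 2, AT2G07768, was at 47.8 FPKM in wbc19 mutant + kanamycin and at 0 in the other libraries too. CCB206, which has no copy in the nucleus, was at 0 in all 4 libraries. Of the other named genes, MATR, the maturase encoded within a nad1 intron, was above 0 in every library, at 4.64 FPKM in wbc19 mutant + kanamycin, 3.01 in wbc19 mutant, 4.00 in control + kanamycin and 2.63 in control. ORFX was at 4.71 FPKM in wbc19 mutant + kanamycin, 12.5 in wbc19 mutant, 0 in control + kanamycin and 25.5 in control.

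Few tRNA genes and unnamed reading frames were detected. Of 20 tRNA genes, 2 were above 0 in wbc19 mutant + kanamycin, 1 in wbc19 mutant, none in control + kanamycin and 4 in control, and the values of these short genes stood for about 1 to 3 reads. TRNS.2 and TRNS.4 had identical values, 96.8 FPKM in wbc19 mutant + kanamycin, 0 in wbc19 mutant, 0 in control + kanamycin and 54.2 in control. TRNW and TRNP were above 0 only in control (126 and 62.8 FPKM), and TRNM.1 only in wbc19 mutant (53.7 FPKM). Of 83 unnamed reading frames, 19 were above 0 in wbc19 mutant + kanamycin, 6 in wbc19 mutant, 10 in control + kanamycin and 24 in control, and 50 were at 0 in all. ORF111D was at 100.1 FPKM in control, about 13 reads, and was listed at 0 in the other 3 libraries. ORF107G was at 50.9 FPKM in wbc19 mutant + kanamycin and 13.2 in control and at 0 in wbc19 mutant and control + kanamycin. ORF106F was at 19.4 FPKM in wbc19 mutant + kanamycin, about 2 reads, and 26.9 in control + kanamycin, about 6 reads. It was listed at 0 in both libraries without kanamycin, but its intervals with and without kanamycin overlapped in each line. ORF313 was listed at 0 in both wbc19 mutant libraries and was at 37.7 FPKM in control + kanamycin and 3.68 in control, and its row on chromosome 2, AT2G07718, had the same values.

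ORF110A (77819 to 78151) had the second highest mean of the unnamed reading frames and shares part of its sequence with another genome. It was at 331 FPKM in wbc19 mutant + kanamycin, 367 in wbc19 mutant, 176 in control + kanamycin and 244 in control. Of its 36-base stretches 51.2% also occurred in the plastid genome and 87.9% in the nucleus. The plastid gene concerned is rbcL, the gene of the large Rubisco subunit, which was at 1259.7 FPKM in wbc19 mutant + kanamycin, 1480.4 in wbc19 mutant, 1307 in control + kanamycin and 1530.2 in control. A run of 135 bases of RefSeq's ORF110A is identical to rbcL at Pt:55659-55793. The chromosome 2 insert holds the same run on its minus strand at chr2:3468443-3468577, with the substitution G29C, counted from 1 at the left end of the run. Both are given in the sense of rbcL, with the differing base in capitals, because a read of 36 bases that avoids this base fits all 3 genomes:
plastid rbcL stretch in ORF110A: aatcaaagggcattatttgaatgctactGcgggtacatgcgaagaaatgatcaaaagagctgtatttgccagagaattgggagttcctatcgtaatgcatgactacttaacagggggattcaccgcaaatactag
chromosome 2 stretch: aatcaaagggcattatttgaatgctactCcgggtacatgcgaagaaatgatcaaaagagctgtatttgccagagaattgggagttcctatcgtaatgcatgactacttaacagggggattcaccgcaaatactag
AT2G07732, the row on chromosome 2 that holds this stretch, was at 301 FPKM in wbc19 mutant + kanamycin, 235 in wbc19 mutant, 106 in control + kanamycin and 226 in control. The level of ORF110A is thus not specific to mitochondrial RNA, and the part of rbcL reads in it was not tested.

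The differences between libraries were then counted for the 42 mitochondrial genes averaging 5 FPKM or more across libraries, against all 9761 rows past the same limit. ORF294, with a mean of 5.85 FPKM, was just inside this limit, and ORF275, at 4.92 FPKM, just outside. The mean is taken over the libraries compared, so a gene above 0 in a single library passed through that library. ORF111D, TRNW and TRNP passed through control alone and could only be lower against it. TRNM.1 passed through wbc19 mutant alone and could only be higher in it. CCB203 passed through wbc19 mutant + kanamycin alone and could only be higher in that library. RPSL2 and ORF107G passed largely through wbc19 mutant + kanamycin, and ORF313 largely through control + kanamycin. A log2 difference of at least 1 in either direction, a rule of size and not a test, was counted. The library labelled wbc19 mutant was first set against that labelled control, both from untreated seedlings. In wbc19 mutant against control, 28 of the 42 genes were at least 2-fold lower (66.7%, against 37.2% of all rows) and 3 at least 2-fold higher (7.14%, against 23.9%). The median log2 difference was −3.17, against −0.28 over all rows. The 3 higher genes were NAD1A, NAD3 and TRNM.1, and of the 28 lower genes 20 were listed at 0 in wbc19 mutant, against 2213 of the 3630 lower rows in all. Several of the lower genes stood for about 3 reads or fewer in control, among them RRN5, RPSL2, TRNS.2 and ORF107G. Over the 18 genes above 0 in both libraries the median was −0.74, with 1 gene higher and 8 lower. Over the 6859 rows above 0 in both it was 0.13, with 2002 higher and 1417 lower.

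The share of genes listed at 0 moved with this result. Of the 42 genes, 8 were at 0 in wbc19 mutant + kanamycin (19.0%, against 11.0% of all rows), 22 in wbc19 mutant (52.4%, against 26.3%), 16 in control + kanamycin (38.1%, against 17.6%) and 4 in control (9.52%, against 6.51%). Values of 0 also fell on well-covered nuclear genes. Of 254 single-exon nuclear genes with about 20 or more reads in control, 38 were listed at 0 in wbc19 mutant, and of 379 with as many reads in wbc19 mutant, 46 were listed at 0 in control. The largest such share was for genes with as many reads in control + kanamycin, of which 147 of 450 were at 0 in wbc19 mutant. Losses were fewest between control and wbc19 mutant + kanamycin. Of the 254 genes in control, 5 were at 0 in wbc19 mutant + kanamycin, and of 243 with as many reads there, 5 were at 0 in control. None of the 5 mitochondrial genes in 1 piece with as many reads in control was at 0 in wbc19 mutant. Of the 11 such genes with as many reads in control + kanamycin, however, 3 had a 0 in wbc19 mutant. These were NAD9, RRN5 and ORF313, which stood for about 55, 55 and 45 reads in control + kanamycin. ORF313 was also the 1 gene of the 11 without signal when the mutant line had kanamycin. The part of these losses in the mitochondrial differences was not tested.

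Between the lines under kanamycin, the mitochondrial genes as a group did not lie to 1 side. In wbc19 mutant + kanamycin against control + kanamycin, 15 of the 42 genes were at least 2-fold higher (35.7%, against 29.0% of all rows) and 12 at least 2-fold lower (28.6%, against 30.4%), with a median of 0.13, against 0.00 over all rows. Of the 15 higher genes 11 were listed at 0 in control + kanamycin, against 1314 of the 2831 higher rows in all, and of the 12 lower genes 4 were listed at 0 in wbc19 mutant + kanamycin. Over the 22 genes above 0 in both libraries the median was −0.20, with 4 higher and 8 lower, against a median of −0.27 over all rows above 0 in both. Of the 9 nad rows, 2 were higher and 5 lower (median −1.34). NAD5C, TRNS.2, TRNS.4, ORF107G and RPSL2 stood at the high end, and NAD1A, ORF313, RRN5, NAD6 and NAD9 at the low end.

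The response to kanamycin was counted in each line. In control + kanamycin against control, 5 genes were at least 2-fold higher (11.9%, against 26.6% of all rows) and 20 at least 2-fold lower (47.6%, against 30.8%), with a median of −0.67, against 0.00 over all rows. All 4 ribosomal protein genes past the limit were lower, and of 4 cob and cox genes and 3 atp genes none passed 2-fold in either direction. Of these ribosomal protein genes, RPSL2 stood for about 1 read in control and the intervals of RPL5 overlapped. RPL16 and RPS3 share a locus, so their split of reads is uncertain. ATP1 and ATP9 each differed by −0.01. The higher genes were RRN5, NAD9, NAD1A, ORF106F and ORF313. Of the 20 lower genes 14 were listed at 0 in control + kanamycin, against 1426 of the 3006 lower rows in all. Over the 24 genes above 0 in both libraries the median was −0.16, with 3 higher and 6 lower, against a median of 0.19 over all rows above 0 in both.

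In wbc19 mutant + kanamycin against wbc19 mutant the counts ran the other way, with 22 of the 42 genes at least 2-fold higher (52.4%, against 35.7% of all rows) and 4 at least 2-fold lower (9.52%, against 27.1%), and a median of 1.32, against 0.08 over all rows. All 3 atp genes past the limit and 3 of the 4 ribosomal protein genes were higher. The intervals of ORF25 and RPL5 overlapped, and those of ATP1, ATP9 and RPSL2 did not. COX1, RRN18 and RRN26 differed by 0.03, −0.11 and 0.01. Of the 22 higher genes 16 were listed at 0 in wbc19 mutant, against 2056 of the 3486 higher rows in all. Over the 18 genes above 0 in both libraries the median was 0.27, with 6 higher and 2 lower, against a median of −0.20 over all rows above 0 in both. This comparison shares the wbc19 mutant library with the first one and so is not independent of it.

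**Figure D4:**
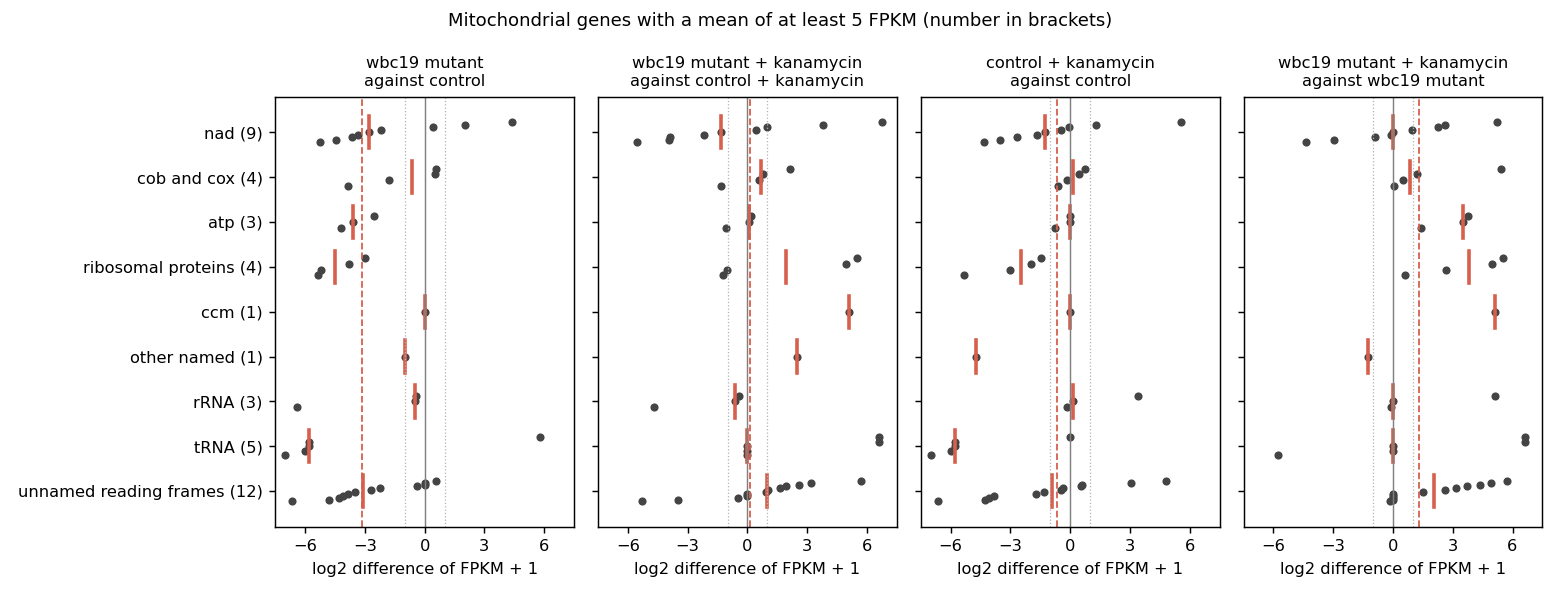
Log2 difference of FPKM plus 1 (horizontal axis) for each of these 42 mitochondrial genes, by class (rows, with the number of genes), with 1 panel per comparison, red bars at class medians, a dashed red line at the median of all 42 and dotted lines at 2-fold. The dashed line lies at −3.17, 0.13, −0.67 and 1.32 from the left panel to the right.

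The genes were also divided by sequence alone, into those with and without copies elsewhere. The division rests on exact matches, while the reads were aligned with up to 2 mismatches. A gene called without copies can therefore still share reads, and COX2 among them had 8.23% of its stretches in the nucleus. Of the 22 genes with at least 90% of their 36-base stretches nowhere else, 13 were above 0 in wbc19 mutant + kanamycin, 5 in wbc19 mutant, 11 in control + kanamycin and 13 in control. Among the 75 genes with at least 90% of stretches in the nucleus, 27 were above 0 in wbc19 mutant + kanamycin, 14 in wbc19 mutant, 21 in control + kanamycin and 36 in control. Of all rows, 39.4% were above 0 in wbc19 mutant + kanamycin, 26.9% in wbc19 mutant, 33.1% in control + kanamycin and 44.9% in control. In wbc19 mutant against control, 8 of 12 genes without copies and 15 of 22 copied genes were at least 2-fold lower, against 37.2% of all rows. The median was −3.31 for the genes without copies and −2.76 for the copied genes. In control + kanamycin against control, 3 genes without copies were higher and 3 lower (median −0.16), and 2 copied genes were higher and 12 lower (median −1.28). When the lines on kanamycin were compared, the counts were 3 higher and 3 lower without copies (median −0.20) and 9 higher and 9 lower with them (median 0.49). In the wbc19 mutant, with kanamycin against without, they were 7 higher and 0 lower without copies (median 3.08) and 12 higher and 3 lower with them (median 1.32). Of the higher genes without copies, all but NAD5C were listed at 0 in wbc19 mutant. Of all rows, 26.6% were higher and 30.8% lower in control + kanamycin against control. The shares were 29.0% and 30.4% between the lines on kanamycin, and 35.7% and 27.1% in the wbc19 mutant. The difference between genes with and without copies was not tested.

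The partners of these genes that the nucleus encodes lay near the median of all rows in wbc19 mutant against control. Of 45 nuclear genes for subunits of the respiratory complexes and cytochrome c, 44 were above 0 in wbc19 mutant + kanamycin, 40 in wbc19 mutant, 43 in control + kanamycin and 43 in control. In wbc19 mutant against control 8 of the 44 past the limit were at least 2-fold higher and 9 lower, against 23.9% and 37.2% of all rows. The median was −0.27, close to the −0.28 of all rows. Their median was −0.12 between the lines on kanamycin and −0.08 in control + kanamycin against control, against 0.00 over all rows in each. In wbc19 mutant + kanamycin against wbc19 mutant it was −0.36, below the 0.08 of all rows. The summed level of the list was 2093 FPKM in wbc19 mutant + kanamycin, 2847 in wbc19 mutant, 2860.4 in control + kanamycin and 2715 in control. That of the 24 mitochondrial rows of respiratory subunits was 340.2 FPKM in wbc19 mutant + kanamycin, 112 in wbc19 mutant, 359 in control + kanamycin and 375 in control. Nuclear messages carry stable poly(A) tails, so the sums do not compare the supply of subunits. The 6 nuclear genes of mitochondrial RNA synthesis, splicing and decay, among them the organelle RNA polymerases and polynucleotide phosphorylase, all averaged under 5 FPKM, and 4 were above 0 in wbc19 mutant + kanamycin, 1 in wbc19 mutant, 3 in control + kanamycin and 2 in control.

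The plastid genome, the other organelle genome whose transcripts are seldom polyadenylated, had more genes above 0 and medians nearer to those of all rows. Of 131 plastid genes, 104 were above 0 in wbc19 mutant + kanamycin, 90 in wbc19 mutant, 98 in control + kanamycin and 115 in control. In wbc19 mutant against control, 49 of the 123 past the limit were at least 2-fold lower (39.8%) and 18 higher (14.6%), with a median of −0.40. When wbc19 mutant + kanamycin was set against wbc19 mutant, 33 plastid genes were higher and 23 lower (median 0.00). The order of the libraries by number of genes above 0 was the same for plastid genes, mitochondrial genes and all rows, from wbc19 mutant, the lowest, through control + kanamycin and wbc19 mutant + kanamycin to control. Whether the mitochondrial genes differ from the plastid genes was not tested, since each condition has 1 library.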

How the data were processed

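Members and lists were chosen with earlier results of these data known. The authors clipped reads to 36 bases, aligned them to TAIR10 with TopHat2 2.0.5 (up to 2 mismatches per the study's methods), assembled transcripts with Cufflinks 2.0.2 and computed values with Cuffdiff 1.3.0. The deposited FPKM (headed rpkm) were used as given. Columns of the authors' fold changes, p-values and test status were not used. Of 33624 rows, 33539 were used: 78 had differing copies of a value and 7 had no value. For 27 values of 0 written as 0.01, 0 was used. A row without a locus identifier, ORF145C, is no member by the rule.

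Differences are log2 of FPKM plus 1, which understates differences of low genes, for rows with a mean of at least 5 FPKM. Reads were estimated from the step of single-exon nuclear genes with an assumed fragment length of 200 bases, longer than the fragments selected. Of the low values used, 74.1% in wbc19 mutant + kanamycin, 78.8% in wbc19 mutant, 87.2% in control + kanamycin and 75.9% in control lay within 0.2 of a whole read, from 247, 33, 47 and 370 values. Intervals are given only for genes in 1 piece. Counting by size was checked on simulated reads with known changes.

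Named are all members with a known product and a mean of at least 5 FPKM, the 8 other members with the highest mean, and others among the 5 largest differences in each direction of each comparison; further genes were named after their values were seen. Sequences came from RefSeq's TAIR10.1, whose nuclear and plastid coordinates are those of TAIR10. Its mitochondrial genome is another version and was read by RefSeq's own features, 114 of 124 sought. Coordinates of mitochondrial genes are the table's. Alternatives were other pseudocounts, limits, scalings and subsets. Computations used Python 3.11.15, numpy 2.4.6, pandas 2.3.3, scipy 1.17.1, Biopython 1.88 and matplotlib 3.10.9.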

Additional observations from a re-analysis of the deposited data

Results flagged for a closer look

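Over the 42 genes the difference between libraries with and without kanamycin had a median of opposite sign in the 2 lines. The median log2 difference of the mitochondrial genes was 1.32 when wbc19 mutant + kanamycin was set against wbc19 mutant, and −0.67 in control + kanamycin against control; with 1 library per condition the difference between the lines was not tested. Over genes above 0 in both libraries compared, the median was 0.27 in the mutant line and −0.16 in the control line. Over the 12 genes with sequence of their own it was 3.08 in the mutant line and −0.16 in the control line. The 3.08 rests largely on zeros, since NAD9, COX2, ORF25, ORF149, ORF106F and RRN5 were listed at 0 in wbc19 mutant. In wbc19 mutant + kanamycin, NAD9 stood for about 2 reads, ORF25 for 3, ORF149 for 6, ORF106F for 2 and RRN5 for 1. Of 42 genes, 10 were at least 2-fold lower with kanamycin in the control line and at least 2-fold higher with it in the mutant line (23.8%, against 11.9% of all rows), and 1 had the reverse (2.38%, against 6.72%). The 10 include TRNS.2 and TRNS.4, which have identical values, and genes of about 1 read in control.

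The named genes with such opposite differences follow, on the log2 scale of FPKM plus 1, where values of genes listed at 0 depend on the pseudocount. NAD5C differed by 5.22 in the mutant line and −4.32 in the control line, and RPL16 by 4.96 in the mutant line and −5.33 in the control line. RPL5 differed by 2.66 in the mutant line and −1.48 in the control line, and RPSL2 by 5.52 in the mutant line and −3.0 in the control line. ORF107G differed by 5.70 in the mutant line and −3.83 in the control line, and TRNS.2 and TRNS.4 each by 6.61 in the mutant line and −5.79 in the control line. NAD1A alone had the reverse, at −4.38 in the mutant line and 5.54 in the control line. Its copy on chromosome 2, AT2G07785, had the same directions but was above 0 in all libraries, including those where NAD1A was listed at 0. In control, RPSL2, TRNS.2 and TRNS.4 each stood for about 1 read and ORF107G for about 2. In the control line the intervals with and without kanamycin overlapped for RPL5, RPSL2, ORF107G, TRNS.2 and TRNS.4 and not for NAD1A. In the mutant line they overlapped for RPL5, NAD1A, TRNS.2 and TRNS.4 and not for RPSL2 and ORF107G. The differences between the lines were not tested either.

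Rows on the mitochondrial genome outside the members also held signal. An assembled locus of 60 bases (289657 to 289716) was at 46204.3 FPKM in control and 0 elsewhere, and one of 40 bases (345957 to 345996) at 377174 FPKM in control + kanamycin and 0 elsewhere. FPKM of loci so much shorter than the assumed fragment length cannot be read as levels. ORF145C was at 3.65 FPKM in wbc19 mutant + kanamycin and 1.98 in wbc19 mutant, and was listed at 0 in control + kanamycin and control.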

How the results depend on the processing

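No paired analysis was possible because each condition has 1 library, and for the same reason no library could be left out. Of 108 values under the alternatives and 24 under a pair of alternatives added after seeing the data, 91 stayed within 1.5 times the count or within the median's order-statistic interval, 41 moved beyond it, and no median past 2-fold changed sign. In wbc19 mutant against control the median was −4.49 with a pseudocount of 0.1, −3.98 scaled by upper quartiles and 0.00 with no filter. With no filter it was also 0.00 in both comparisons of kanamycin with none, since 68 genes are at 0 throughout. Most moved counts follow from the number of genes counted. With a mean of at least 1 FPKM (71 genes), 5 were higher and 45 lower in wbc19 mutant against control, 27 higher in wbc19 mutant + kanamycin against control + kanamycin, 9 higher and 33 lower in control + kanamycin against control, and 36 higher in wbc19 mutant + kanamycin against wbc19 mutant. With no filter (144 genes) these were 5 and 50, 27, 9 and 38, and 36. With a mean of at least 20 FPKM (13 genes) the higher and lower counts were 0 and 9, 3 and 3, 2 and 5, and 7 and 0 in the same order of comparisons. Over genes with a known product (25), 16 were lower in the first comparison, 7 higher in the second, 3 higher and 10 lower in the third and 13 higher in the fourth. Scaled by upper quartiles, 7 were lower in the second. Over genes with sequence of their own (12, added), the counts were 0 and 8, 3 and 3, 3 and 3, and 7 and 0. With the level of the chromosome 2 copy added (55 genes), 5 were higher in the first and 9 in the third. Scaling by upper quartiles moved the median of all rows to −1.35, 0.41, −0.82 and 0.95 in the order of the comparisons, and by median ratio to −0.29, 0.00, −0.06 and 0.21. Most mitochondrial protein genes stood for under 20 reads a library, which limits what single values show.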
